A study of Mus musculus with 4 samples.

Results

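MHC class II molecules present peptides of ingested proteins to CD4+ T cells, and their genes with that of the transactivator Ciita were followed over 4 arrays of mouse splenic dendritic cells (DC). The family was taken as 10 genes: H2-Aa, H2-Ab1, H2-Eb1, H2-DMa, H2-DMb1, H2-DMb2, H2-Oa, H2-Ob, Cd74 and Ciita. Every probe set annotated with exactly 1 gene symbol that is among these names was used, which gave 19 of 45037 probe sets and 10 of 17097 genes. The rule itself uses no measured value, but the 10 genes were chosen with earlier results of these data known.

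The study asked how DC differ when they lack MARCO, a class A scavenger receptor, and how they then respond to LPS, a bacterial ligand of TLR4. There was 1 array for each of 4 conditions. WT mice, matched for age and sex, carried MARCO, MARCO-/- mice were genetically deficient in it, and for either genotype the labels give the background C56BL/6. Mice were 8 to 12 weeks old. DC were taken from digested spleens of untreated mice by positive selection for CD11c, 5 to 6 mice to a pool, and kept in culture overnight, in PBS for the WT PBS and MARCO-/- PBS arrays and in 100 ng/ml LPS for the WT LPS and MARCO-/- LPS arrays. The methods describe 3 such pools of each genotype but do not tie an array to a pool. A single array stands for each condition, so there is no test and no error of a ratio. A probe set is therefore called at a difference of at least 2-fold, the threshold of the methods, and the share of all probe sets past it is given as background. Values are RMA intensities on a linear scale, ratios are given as log2, and a gene is represented by the brightest of its probe sets, by mean log2 intensity.

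The labels describe all 4 samples as positive for CD11c, CD80, CD86 and MHC-II. The array medians lay between 4.72 and 4.98, and the median of all intensities was 4.87. Marco, the targeted gene, had an intensity of 8.05 in WT PBS, 3.15 in WT LPS, 3.95 in MARCO-/- PBS and 4.26 in MARCO-/- LPS. All 4 lie close to the median of all intensities, and it is not known whether the probe set covers the part of the gene that was deleted, so Marco is a poor check of the genotype labels. Itgax, which encodes CD11c, had 548 and 621 in WT PBS and MARCO-/- PBS, and 12.9 and 16.4 in WT LPS and MARCO-/- LPS.

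A class II molecule is a pair of an alpha and a beta chain. In the endoplasmic reticulum the pair is bound by the invariant chain, the product of Cd74, which fills the groove and leads the complex to endosomes. There the invariant chain is cut down to a short remnant, DM exchanges that remnant for a peptide, and DO restrains DM. Transcription of these genes depends on the conserved X and Y boxes of their promoters, where the RFX complex, CREB and NF-Y assemble and recruit CIITA. DC that mature under LPS are known to switch off Ciita while they keep peptide-loaded class II at their surface.

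The promoter sequences are shown because the X and Y boxes are what ties the transcription of class II genes to Ciita. A promoter here runs from 250 bases before to 50 bases after a gene start of RefSeq, build GRCm38.p6, and 7 of the 10 genes had at least 1 in the table, 8 promoters in all. H2-Ab1, Cd74 and Ciita had none. Both strands were searched for the Y box core TGATTGG, and for an X box core GNAAC that lies 10 to 40 bases ahead of it on the same strand. The spacing and the pair were chosen after the member promoters had been seen, so their share among the members is no independent support. In the windows below, written 5′ to 3′ on the strand of the gene, capitals mark the X core and the Y core.
H2-Oa: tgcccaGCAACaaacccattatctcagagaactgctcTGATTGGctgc
H2-DMb1: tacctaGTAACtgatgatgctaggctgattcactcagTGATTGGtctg
H2-DMb2: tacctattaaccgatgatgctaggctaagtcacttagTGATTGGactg
H2-Ob: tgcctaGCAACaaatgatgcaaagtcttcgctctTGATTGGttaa
H2-Aa: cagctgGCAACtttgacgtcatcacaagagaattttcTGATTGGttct
H2-Eb1: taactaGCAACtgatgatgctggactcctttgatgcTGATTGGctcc

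The windows lie at chr17:34092297-34092344 for H2-Oa, chr17:34153091-34153138 for H2-DMb1, chr17:34145120-34145167 for H2-DMb2, chr17:34238812-34238856 for H2-Ob and chr17:34305770-34305816 for H2-Eb1, all on the plus strand, and at chr17:34287863-34287910 on the minus strand for H2-Aa. Each lies upstream of the start that its promoter entry uses, which for H2-DMb2 is inside the gene as annotated and for the other genes is the annotated gene start. The last base of the Y core stood 39 bases before the start in H2-Oa, 44 in H2-Aa, 53 in H2-Ob, 55 in H2-Eb1, 57 in H2-DMb1 and 86 in H2-DMb2. The pair was found in 5 of the 7 genes, and the bases between its cores numbered 26 in H2-Oa, H2-DMb1 and H2-Aa, 25 in H2-Eb1 and 23 in H2-Ob. H2-DMb2 had the Y core without the X core as spelled here, and the promoters of H2-DMa had neither. The H2-DMa promoters, chr17:34122582-34122881 and chr17:34125268-34125567, both lie inside the gene as annotated, so its annotated start was not searched. Of all 32851 promoters in the table, 7.82% held the Y core and 0.828% the pair, against 6 and 5 of the 8 member promoters. A match of letters is a description and no measure of binding.

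The 3 antigen-presenting chains were among the brightest probe sets of the PBS arrays and lower on both LPS arrays. H2-Aa encodes the alpha chain and H2-Ab1 the beta chain of I-A, the class II molecule that presents in C57BL/6 mice, and H2-Eb1 encodes the beta chain of I-E. H2-Eb1 had an intensity of 4093 in WT PBS, 1479.6 in WT LPS, 4206.5 in MARCO-/- PBS and 1497 in MARCO-/- LPS. This is 2.77-fold lower with LPS in WT and 2.81-fold lower in MARCO-/-, and the genotypes differed by 1.03-fold with PBS and by 1.01-fold with LPS. A bulk array cannot tell fewer cells of a type from less RNA per cell, here or in any result that follows.

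H2-Ab1 had 3 probe sets. The brightest read 3356 in WT PBS, 996 in WT LPS, 3710.2 in MARCO-/- PBS and 1008 in MARCO-/- LPS, the second 3304, 676, 3209 and 652 in the same order, and the third 735, 133, 729 and 149. Both LPS arrays were below both PBS arrays in each of them. The log2 ratio of LPS over PBS was -1.75, -2.29 and -2.47 in WT, in order of brightness, and -1.88, -2.30 and -2.29 in MARCO-/-. All 3 were at least 2-fold lower in either genotype.

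The 3 probe sets of H2-Aa were all lower with LPS, but by different amounts. The brightest probe set read 4999.8 in WT PBS, 3013 in WT LPS, 5231 in MARCO-/- PBS and 2035 in MARCO-/- LPS. That is 1.66-fold lower with LPS in WT, short of the threshold, and 2.57-fold lower in MARCO-/-. The second probe set read 2732, 936, 2707 and 910.1, and the third 879, 265, 707 and 164. By these the transcript was 2.92-fold and 3.32-fold lower with LPS in WT and 2.97-fold and 4.33-fold lower in MARCO-/-. The brightest reading in WT PBS compares with a highest intensity of 6497 for any probe set of that array. In H2-Aa and H2-Ab1 the smallest LPS ratio in size came from the brightest probe set, in WT and in MARCO-/- alike. In H2-DMb2, H2-Ob and Ciita it came from the dimmest, in both genotypes. For Ciita that was -0.95 in WT, against -2.555 for the brightest. In H2-DMa it came from the brighter probe set in WT and from the dimmer in MARCO-/-. Over the 19 member probe sets, the log2 intensity with PBS and the log2 ratio of LPS over PBS had a Pearson correlation of 0.353 in WT and 0.249 in MARCO-/- (Spearman 0.395 and 0.291). A cutoff at a PBS intensity of at least 100, which was not planned, leaves out the dimmest probe sets of H2-DMa and of Ciita. For the 17 that remain the Pearson correlation was 0.614 and 0.472 (Spearman 0.529 and 0.449). These are descriptions across probe sets, several of which read the same gene, and the PBS value enters both measures. All probe sets of H2-Aa, H2-Ab1 and Cd74 have names in x_at, s_at or a_at, which mark probes shared with other transcripts or sequences. The mark of Cd74 and of the second H2-Ab1 probe set is a_at, for transcripts of the same gene. The brightest probe sets of H2-DMb2 (s_at) and Ciita (a_at) and the dimmer of H2-DMa (x_at) are marked as well.

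Cd74 was lower with LPS too, within the range of the brightest probe sets of the chains in WT and by less than any of them in MARCO-/-. Its probe set read 2249.5 in WT PBS, 905 in WT LPS, 2221.5 in MARCO-/- PBS and 1068 in MARCO-/- LPS. The log2 ratio of LPS over PBS was -1.31 in WT and -1.06 in MARCO-/-, which is 2.49-fold and 2.08-fold lower. With LPS it was 1.18-fold higher in MARCO-/- than in WT, and with PBS the genotypes differed by 1.01-fold. Cd74 thus had the LPS ratio smallest in size of all members in MARCO-/-.

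**Figure D1:**
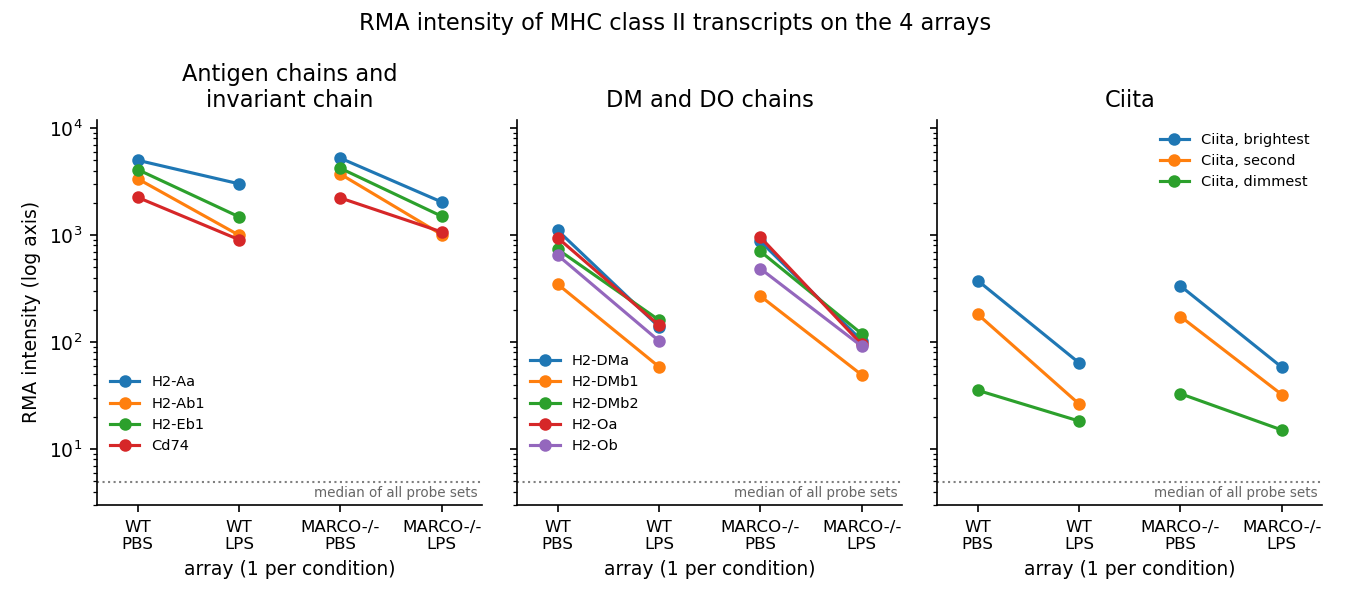
RMA intensity on a log axis for each of the 4 arrays, 1 per condition, with lines joining PBS to LPS within a genotype; panels show the antigen chains with the invariant chain, the DM and DO chains (brightest probe set of each gene) and the 3 probe sets of Ciita. Every line runs downward from PBS to LPS, the H2-Eb1 line from 4093 to 1479.6 in WT, and all points lie above the dotted median of all intensities at 4.87.

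The genes of peptide exchange were lower with LPS as well, and by their brightest probe sets the log2 ratios were larger in size than those of the chains. H2-DMa encodes the alpha chain of DM, and H2-DMb1 and H2-DMb2 are paralogs that encode its beta chain. H2-DMa read 1104.5 in WT PBS, 138 in WT LPS, 872 in MARCO-/- PBS and 103 in MARCO-/- LPS, which is 7.99-fold lower with LPS in WT and 8.46-fold lower in MARCO-/-. A dim second probe set of H2-DMa read 60.6, 5.93, 48.8 and 6.35, so that its LPS values lay near the background. H2-DMb1 read 347, 58.6, 268 and 49.2, and was 5.92-fold lower with LPS in WT and 5.45-fold lower in MARCO-/-. The brightest probe set of H2-DMb2 read 734, 160.1, 702 and 119, and the other 237, 57.0, 169.6 and 42.8. They were 4.59-fold and 4.15-fold lower with LPS in WT, and 5.89-fold and 3.96-fold lower in MARCO-/-. H2-DMb1 and H2-DMb2 are close in sequence, so the probe sets may not fully separate them.

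DO is built from the products of H2-Oa and H2-Ob and is known above all from B cells and some DC. H2-Oa read 941 in WT PBS, 143 in WT LPS, 952 in MARCO-/- PBS and 94.8 in MARCO-/- LPS. Its log2 ratio of LPS over PBS was -2.72 in WT and -3.33 in MARCO-/-, and the latter was the lowest of the 19 in that genotype. The brightest probe set of H2-Ob read 648, 102, 484 and 91.1, with log2 ratios of -2.67 and -2.41, and the other 139, 32.0, 122 and 27.1, with -2.11 and -2.17. By the brightest probe set, all 5 genes of peptide exchange were at least 2-fold lower with LPS in both genotypes, with a range of -2.998 to -2.20 in WT and of -3.33 to -2.41 in MARCO-/-. The 3 chains ranged from -1.75 to -0.73 and from -1.88 to -1.36, so these ranges did not overlap. Over all probe sets they did, since the second and the third of H2-Ab1, at -2.29 and -2.47 in WT, were lower than both of H2-DMb2, at -2.20 and -2.05, and than the other of H2-Ob. By the mean of the probe sets H2-Ab1 was at -2.17 and H2-DMb2 at -2.13 in WT. The exchange genes were also dimmer with PBS, where the brightest probe sets read 347 to 1104.5 in WT against 3356 to 4999.8 for the chains.

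Ciita, the coactivator that binds no DNA itself and is limiting for class II transcription, had 3 probe sets. The brightest read 375 in WT PBS, 63.8 in WT LPS, 334 in MARCO-/- PBS and 58.1 in MARCO-/- LPS. It was 5.88-fold lower with LPS in WT and 5.76-fold lower in MARCO-/-. The second read 181.5, 26.3, 173 and 32.25, which is 6.90-fold and 5.37-fold lower. The third was dim at 35.3, 18.2, 32.9 and 15.1, and its log2 ratio was -0.95 in WT and -1.13 in MARCO-/-. All 3 were lower with LPS in both genotypes, and only the dimmest, in WT, missed 2-fold. Which promoter or exon of Ciita each probe set reads is not given in the sources used, so its DC, B cell and interferon-induced forms were not separated.

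Over the family, 17 of 19 probe sets were at least 2-fold lower with LPS in WT, where 7.97% of all probe sets were. In MARCO-/- it was 19 of 19, where 4.98% of all probe sets were. The median log2 ratio of the 19 was -2.20 in WT, with a range of -3.35 to -0.73, and -2.29 in MARCO-/-, with a range of -3.33 to -1.06. Over all probe sets the median was 0.03 and 0.00. By 1 probe set per gene, 9 of 10 genes were called in WT, with H2-Aa the exception, and 10 of 10 in MARCO-/-. Most probe sets of the array are dim, so the counts were also taken over bright ones. Among probe sets with a mean log2 intensity of at least 8, members were lower in 10 of 11 cases in WT, against 8.75% of all 1874, and in 11 of 11 in MARCO-/-, against 6.51%.

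**Figure D2:**
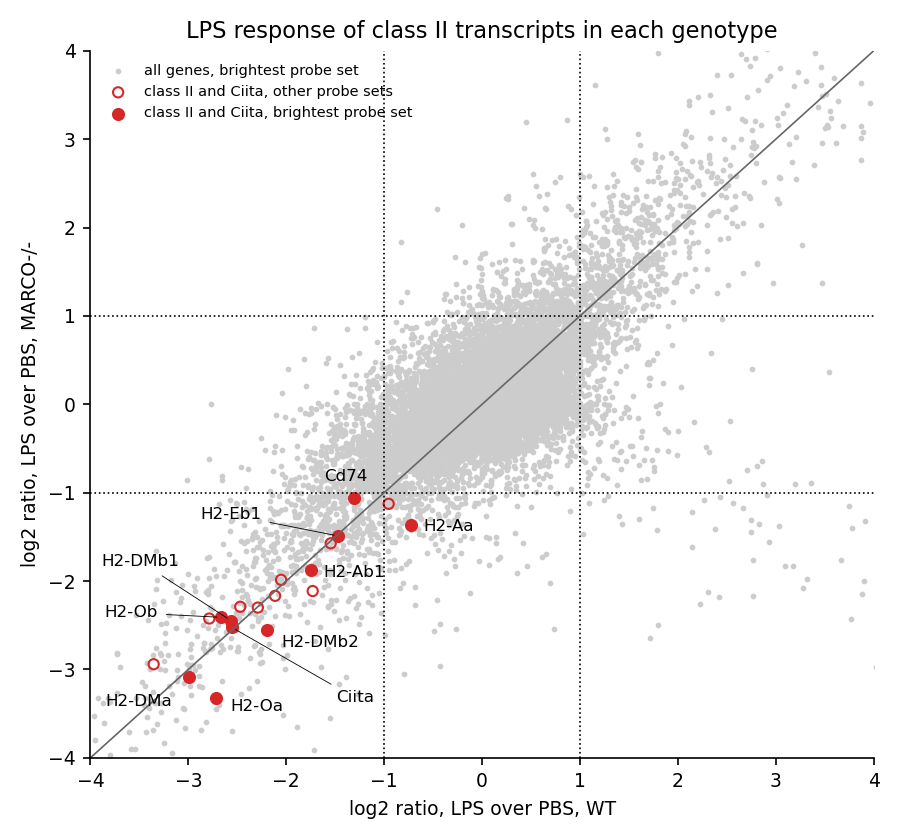
Log2 ratio of LPS over PBS in WT (x axis) and in MARCO-/- (y axis) for every gene by its brightest probe set (grey), the class II genes and Ciita by theirs (filled red) and their other probe sets (open red), with dotted lines at 2-fold, a line of equal response and axes from -4 to 4 that leave out 130 genes. All red points lie below 0 on both axes, H2-Aa and the dimmest Ciita probe set stand to the right of the 2-fold line of WT, and H2-Oa lies farthest below the line of equal response among the members past 2-fold in both.

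The genotypes differed little beside that. With PBS, 0 of 19 member probe sets differed by at least 2-fold between MARCO-/- and WT, where 0.955% of all probe sets did. Their log2 ratios of MARCO-/- over WT ran from -0.48 to 0.15 with a median of -0.07, and 15 of 19 were below 0. The lowest were the second probe set of H2-DMb2 at -0.48, the brightest of H2-Ob at -0.42 and H2-DMb1 at -0.37, which are genes of peptide exchange. The brightest probe sets of the chains were at 0.07 for H2-Aa, 0.15 for H2-Ab1 and 0.04 for H2-Eb1, and Ciita was at -0.17. For scale, the 5th and 95th percentiles were -0.45 and 0.40 over all probe sets, and -0.32 and 0.28 over those with a mean log2 intensity of at least 8. Of the members that bright, the brightest of H2-DMa, at -0.34, lay below the narrower band. The array medians of these conditions were 4.83 and 4.91.

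With LPS it was again 0 of 19, where 2.85% of all probe sets differed by at least 2-fold. The log2 ratios of MARCO-/- over WT ran from -0.70 to 0.29 with a median of -0.17, and 13 of 19 were below 0. For H2-Aa the third probe set was at -0.70 and the brightest at -0.57, but the second at -0.04. H2-Oa was at -0.60. These 3 values lay below the 5th percentile of all probe sets, -0.56. Over probe sets with a mean log2 intensity of at least 8 that percentile was -0.42, and the brightest of H2-DMa, at -0.42, and of H2-DMb2, at -0.43, lay just below it too. The probe sets of Ciita were at -0.14, 0.29 and -0.28 and so did not share a sign, and Cd74 was at 0.24.

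**Figure D3:**
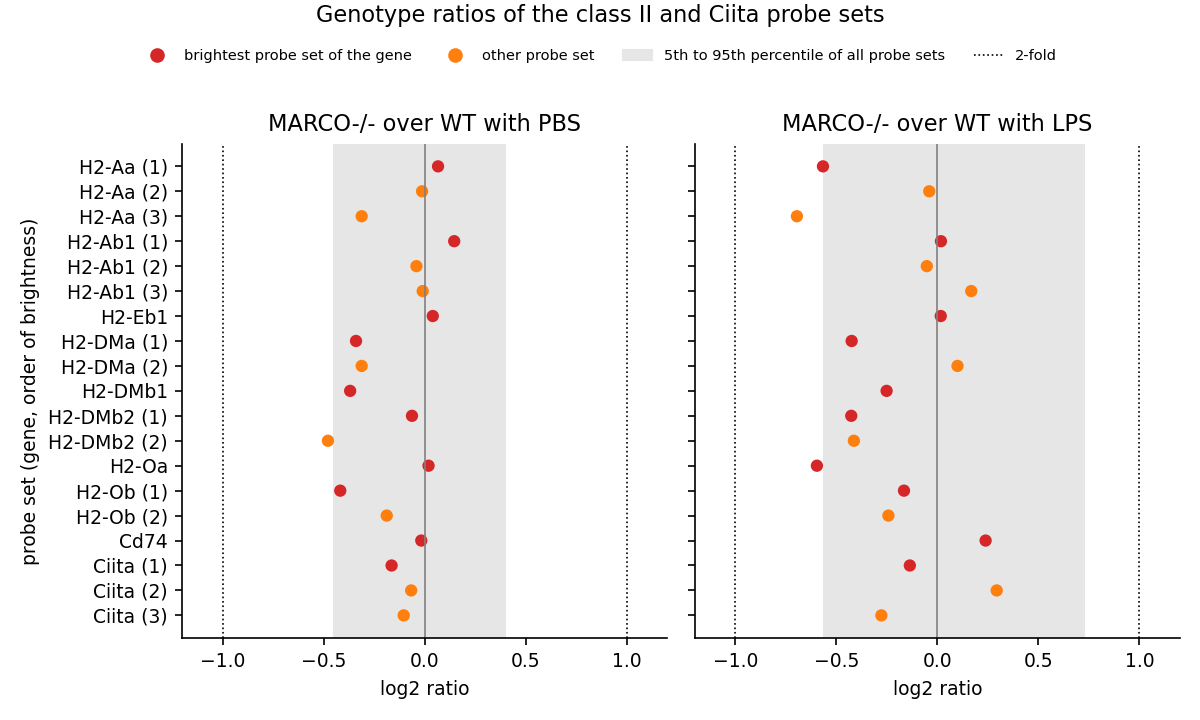
Log2 ratio of MARCO-/- over WT for the 19 probe sets with PBS (left) and with LPS (right), 1 point per probe set, numbered in order of brightness within a gene, with the 5th to 95th percentile of all probe sets in grey and dotted lines at 2-fold. No point reaches a 2-fold line, and with LPS 2 H2-Aa points and H2-Oa lie left of the grey band.

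The difference between the LPS responses, as the log2 ratio in MARCO-/- minus that in WT, had a median of -0.02 over the 19 probe sets. It ran from -0.63 to 0.41, with 8 above and 11 below 0 and 0 past 2-fold. It equals the genotype ratio with LPS minus that with PBS, so it is no further evidence beside those. Over all 45037 probe sets its 5th and 95th percentiles were -0.70 and 0.91. The values farthest from 0 were -0.63 for the brightest probe set of H2-Aa, -0.61 for H2-Oa and 0.41 for the dim probe set of H2-DMa whose LPS values lay near the background. The difference was -0.03 for the second H2-Aa probe set, -0.02 for H2-Eb1 and 0.03 for the brightest of Ciita. These differences have no error with 1 array per condition.

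The class II genes other than Cd74 and Ciita lie together on chromosome 17. In RefSeq, build GRCm38.p6, the stretch from H2-Oa to H2-Eb1 spans chr17:34092379-34316674, or 224 kb, and holds 8 members and 6 other genes, of which 3 were measured. By the brightest probe set, 7 of the 8 members were at least 2-fold lower with LPS in WT and 8 of 8 in MARCO-/-. The 3 other genes were not lower. Psmb8 and Psmb9, subunits of the immunoproteasome that cuts peptides for class I, lie between H2-DMb1 and H2-Ob. Psmb8 read 804 in WT PBS, 1414 in WT LPS, 829.5 in MARCO-/- PBS and 1813 in MARCO-/- LPS, with log2 ratios of LPS over PBS of 0.82 and 1.13, although its other probe set was past 2-fold in WT and not in MARCO-/-. Psmb9 was at 0.33 and 0.62. Brd2, a bromodomain protein whose gene follows H2-Oa and overlaps H2-DMa as annotated, was at 0.41 and 0.85. Ciita lies apart at chr16:10480014-10531064 and Cd74 on chromosome 18.

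**Figure D4:**
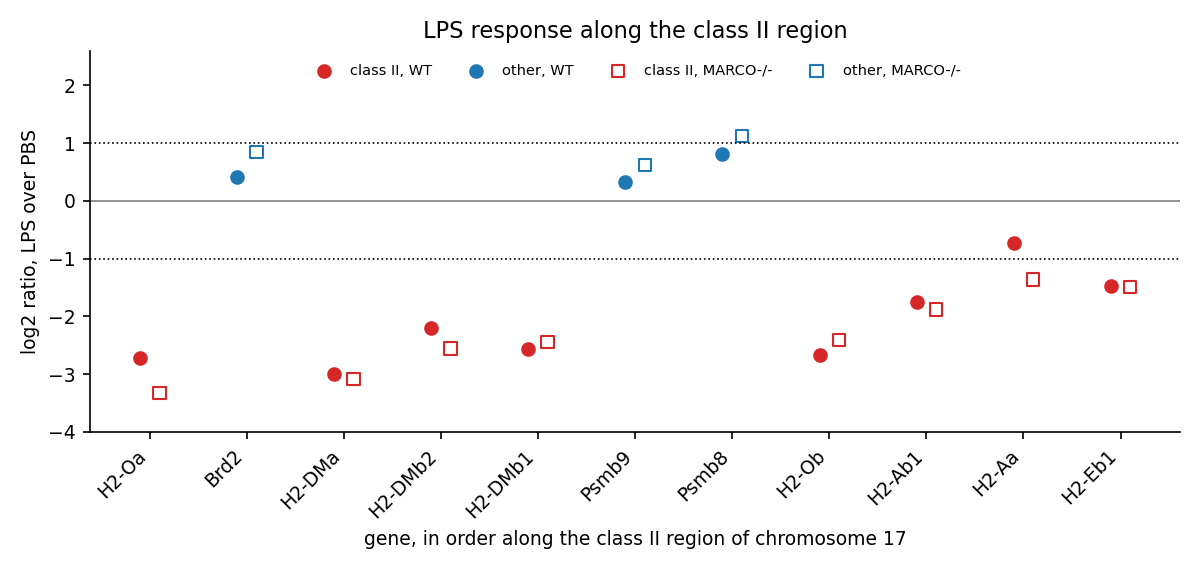
Log2 ratio of LPS over PBS for the 11 measured genes in their order along the class II region of chromosome 17, by the brightest probe set, in WT (filled circles) and MARCO-/- (open squares), with members in red, other genes in blue and dotted lines at 2-fold. The 8 members lie between -3.33 and -0.73, and Brd2, Psmb9 and Psmb8, which stand among them, lie between 0.33 and 1.13.

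Beyond H2-Eb1, outside that stretch and outside the family as chosen here, lie 2 further class II genes. H2-Eb2, a less used beta chain gene, read 143 in WT PBS, 34.0 in WT LPS, 136 in MARCO-/- PBS and 66.0 in MARCO-/- LPS. Its log2 ratio of LPS over PBS was -2.07 in WT and -1.04 in MARCO-/-, and that of MARCO-/- over WT with LPS was 0.96, just short of 2-fold. H2-Ea, the alpha chain gene of I-E, is silent in C57BL/6 mice because its promoter carries a deletion. It read 6.63, 7.57, 8.24 and 5.75, near the median of all intensities. The gene of the partner chain of H2-Eb1 thus gave a reading near background on all 4 arrays.

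Of 10 genes whose products bind or act at the X and Y boxes, 9 were measured. With LPS 2 of them were at least 2-fold lower and 0 higher in WT, and 0 were lower and 1 higher in MARCO-/-. Among all probe sets, 7.97% were at least 2-fold lower with LPS in WT and 4.98% in MARCO-/-, and 4.59% and 5.14% were higher. The count leaves out Kat2b, whose brightest probe set was at -0.77 in WT on the log2 scale. Of its other probe sets, 1 was at least 2-fold lower with LPS in WT and 0 in MARCO-/-. Rfxap, a subunit of RFX, read 70.7 in WT PBS, 27.5 in WT LPS, 68.5 in MARCO-/- PBS and 46.3 in MARCO-/- LPS. Crebbp, a histone acetyltransferase that works with CIITA, read 344, 157, 339.6 and 314. Nfya, a subunit of NF-Y, read 42.2, 42.0, 45.4 and 92.5, but its other probe sets were not past 2-fold, and neither was the other of Rfxap. Rfx5, the DNA-binding subunit of RFX, was at -0.85 in WT and -0.65 in MARCO-/- on the log2 scale and missed the threshold. The median log2 ratio over the 9 genes was -0.29 in WT and -0.15 in MARCO-/-.

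Of 11 genes known to act on Ciita itself, 10 were measured. With LPS 2 were higher and 1 lower in both genotypes. Prdm1, which encodes the repressor Blimp-1 that silences Ciita in plasma cells, read 10.04 in WT PBS, 24.2 in WT LPS, 14.5 in MARCO-/- PBS and 61.8 in MARCO-/- LPS. Its log2 ratio of LPS over PBS was 1.27 in WT and 2.09 in MARCO-/-, from values close to background with PBS. It was also the 1 gene of the list past 2-fold between genotypes with LPS, at 1.35. Irf1, an activator of the interferon-induced promoter of Ciita, read 215, 504, 242 and 621, with log2 ratios of 1.23 and 1.36. Ifngr1, a chain of the interferon-gamma receptor, read 421, 74.8, 500.5 and 98.5 and was 5.64-fold and 5.08-fold lower.

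Genes that act on class II after transcription went in either direction. Marchf1, the ubiquitin ligase that removes class II from the surface of resting DC, read 401 in WT PBS, 36.98 in WT LPS, 331 in MARCO-/- PBS and 33.1 in MARCO-/- LPS. That is 10.8-fold lower with LPS in WT and 10.02-fold lower in MARCO-/-, and 1 of its other 2 probe sets passed 2-fold as well. Cd83, which protects class II from that ligase, read 821, 1462.5, 676 and 1617, which is 1.78-fold and 2.39-fold higher. Of 8 genes of endosomal processing, all measured, 1 was higher in WT and 1, Ctse, lower, and in MARCO-/- 1 was higher and 0 were lower. The count by the brightest probe set leaves out Ctsb, encoding cathepsin B, whose brightest probe set was at -0.78 in WT and -0.57 in MARCO-/- on the log2 scale, while its 3 other probe sets were at least 2-fold lower with LPS in both genotypes. Lgmn, a protease that cuts the invariant chain, was 2.40-fold and 2.12-fold higher with LPS. Ctss, whose product cathepsin S removes most of the invariant chain, read 2157, 2237, 2420.4 and 2372. Ctse, encoding cathepsin E, read 33.6, 8.71, 476 and 262, and was the gene of these 8 past 2-fold between genotypes, 14.2-fold higher in MARCO-/- with PBS and 30.1-fold with LPS. Its WT LPS value lies near the background, which sets the size of that fold.

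Genes of class I presentation were not lower on the same LPS arrays, and several genes of DC maturation were higher. Of 14 class I genes, 11 were measured, and B2m, Tap1 and Tap2 were not. With LPS 0 were lower in either genotype, 0 higher in WT and 1, Psmb8, higher in MARCO-/-. The other Psmb8 probe set was past 2-fold in WT. Pdia3 read 7.68, 7.22, 7.68 and 7.68, near the background, where a fall could hardly show. The median log2 ratio of the 11 was 0.21 in WT, with a range of -0.14 to 0.90. In MARCO-/- it was 0.45, with a range of -0.19 to 1.13. H2-K1, a class I heavy chain, read 2931, 3247, 3123 and 4266. Of 10 maturation genes, 9 were measured, of which 5 were at least 2-fold higher with LPS in WT and 7 in MARCO-/-, and 0 were lower. The 5 were Cd40, Cd80, Fscn1, Ccl22 and Ccl17, and Relb and Cd83 joined them in MARCO-/-. Between genotypes, the chemokine genes Ccl22 with PBS and Ccl17 with LPS were lower in MARCO-/-, by 2.36-fold and 2.52-fold. Ccl17 read 10.6 in WT PBS, 31.9 in WT LPS, 5.56 in MARCO-/- PBS and 12.7 in MARCO-/- LPS. Values this close to the background limit what its folds can show. Cd80 and Cd86 encode the costimulatory receptors named in the labels. Cd80 read 56.2 in WT PBS, 184 in WT LPS, 75.3 in MARCO-/- PBS and 251 in MARCO-/- LPS. Cd86 read 255, 490, 260 and 399 in the same order, 1.92-fold higher with LPS in WT and 1.53-fold in MARCO-/-. Its other probe set was at least 2-fold higher in both genotypes.

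Profiles most like that of Ciita were sought among 1591 genes whose highest log2 intensity was at least 8. The measure was the Euclidean distance between log2 profiles over the 4 arrays, each centred on its own mean. The 5 nearest were Stk17b, a kinase, at 0.14, H2-DMb1 at 0.17, H2-Ob at 0.18, Slc44a2, a choline transporter-like protein, at 0.27 and H2-DMb2 at 0.27. Thus 3 of the 5 were members. Cd74 came 144th and H2-Aa 174th. Around the mean profile of H2-Aa, H2-Ab1 and H2-Eb1, among 1589 genes, the nearest were Coro7 at 0.06, Asah1 at 0.10, Tacc1 at 0.11, Fxyd5 at 0.14 and Fam107b at 0.15, none of them a member. Cd74 came 41st there, at 0.40. With 4 points a profile is mostly its LPS ratio, so nearness is a description of that. Of 160 other measured genes with the box pair in a promoter, 17 or 10.6% were at least 2-fold lower with LPS in WT, where 8.31% of all genes were, and 13 or 8.12% in MARCO-/-, where 5.98% were.

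Markers of the cells that carry class II also differed between PBS and LPS arrays. Of 10 DC markers 8 were measured, their summed intensity was 2626 in WT PBS, 818 in WT LPS, 2527 in MARCO-/- PBS and 1073 in MARCO-/- LPS, and 5 of the 8 were at least 2-fold lower with LPS in both genotypes. Zbtb46, a transcription factor of conventional DC, was higher in MARCO-/- at 1.38, by 1 of its 4 probe sets, and at 0.68 in WT. Of 5 plasmacytoid DC markers 3 were measured, and their sum was 469, 727, 380.4 and 818. With LPS 1 of them, Ly6d, was at least 2-fold higher and 1, Ccr9, at least 2-fold lower in both genotypes. Ly6d read 173, 589, 204 and 664, and Ccr9 157, 32.3, 81.7 and 32.6. No DC marker was near background, meaning below 2 times the median of all intensities, on the PBS arrays, and 2 were on each LPS array, Xcr1 and Cd209a. Flt3, the receptor of the DC growth factor Flt3 ligand, read 533, 308, 489 and 431, Batf3, a transcription factor of the CD8+ DC lineage, 314, 249, 334 and 246, and Dpp4 461, 131, 385 and 175. Of these 3, only Dpp4 is among the 5 DC markers lower in both genotypes. The remaining ones were Itgax, with values given above, Xcr1, Sirpa and Cd209a. Xcr1 read 309, 4.14, 219 and 3.84, Sirpa 199, 37.6, 244 and 77.4, and Cd209a 219, 7.65, 189 and 5.94. Of 11 macrophage markers the sum was 2259.5, 524, 3425 and 797, and 10 of the 11 were lower in both. Cd68, a lysosomal protein, read 447, 112, 511 and 187, Slc40a1, an iron exporter, 521, 14.98, 703 and 36.9, and Spic, a factor of red pulp macrophages and the exception among the 11, 189, 247, 234 and 434. Of 12 B cell markers 11 were measured, and their sum was 2481, 2679, 1968 and 1981, with 3 lower in WT, 2 lower in MARCO-/- and 0 higher. Pax5 was near background on all 4 arrays, whereas Ms4a1, which encodes CD20, read 787, 1113, 647 and 884, Cd79b 557, 765, 406 and 496, and Cd22 433, 264, 458 and 175. B cells and macrophages can express class II too. The part of these markers in the class II ratios was not tested.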

How the data were processed

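RNA of splenic DC was measured on 4 Affymetrix arrays, 1 per condition, named Mouse Genome 430 2.0 in the methods. The authors normalized the CEL files with RMAexpress (version not given in the sources used here), which corrects background, normalizes between arrays and summarizes the probes of a set, and deposited linear intensity values. Their log2 was taken here with no offset, and 104 control probe sets of 45141 were left out. Of the others, 28898 had exactly 1 symbol, 551 several, and 15588 were not listed. Depth does not apply, and the number of arrays limits the precision. The files hold no coordinates; these and the promoters are from RefSeq (GRCm38.p6). The members and lists were chosen with earlier results of these data known. H2-Bl, H2-Pa and H2-Ea-ps, put among the class II loci by error, were removed. Named were all members, pathway genes past 2-fold with the brighter value above the median of all intensities, the 5 nearest profiles and bright markers. Others, such as Rfx5, H2-Ea, Psmb9, Brd2, Ctss, Ctsb, Zbtb46, Ly6d, Ccr9, Sirpa, Xcr1 and Cd209a, were chosen after their values were seen. So were Kat2b, Cd86 and Pdia3. Alternatives were other scalings, 1 probe set per gene, filters and thresholds. Steps were tested on simulated data. Python 3.11.15, numpy 2.4.6, pandas 2.3.3, matplotlib 3.10.9, R 4.3.3 and limma 3.58.1 were used.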

Additional observations from a re-analysis of the deposited data

Results flagged for a closer look

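Among the members, the pathway genes named above, the other class II loci and Marco, 4 had an LPS response of opposite sign in the genotypes, and the difference, MARCO-/- minus WT on the log2 scale, was not tested. It was 1.03 for Nfya, at -0.01 in WT and 1.03 in MARCO-/-. It was -0.71 for H2-Ea, at 0.19 and -0.52, and 1.46 for Marco, at -1.35 and 0.11, both from intensities near the background. It was -0.082 for Ctss, at 0.05 and -0.03, which is close to no response in either. The members had no such difference in sign.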

How the results depend on the processing

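Under quantile normalization, cyclic loess and centring on array medians, 17 of 19 member probe sets stayed at least 2-fold lower with LPS in WT and 19 of 19 in MARCO-/-, and the median of all probe sets moved by at most 0.08. Under quantile normalization the share of lower ones among all called probe sets with LPS in WT was 53.9%, against 63.4%, and between genotypes with LPS 48.6%, against 34.7% (46.3% with cyclic loess and 25.1% with centring). With 1 probe set per gene the count with LPS was 9 in WT and 10 in MARCO-/-, and without x_at, s_at and a_at probe sets 8 and 9, since fewer were counted. At 1.5-fold, 2 probe sets differed between genotypes with LPS, the third of H2-Aa and that of H2-Oa, both lower in MARCO-/-. The share of all probe sets past 1.5-fold was not counted, so this count has no background beside it. Over all probe sets the 5th and 95th percentiles of that log2 ratio were -0.560 and 0.725. The mean of its probe sets put H2-Aa at -1.34 with LPS in WT, past 2-fold. The ratio of each of the 10 genes was also taken under these scalings and by the mean of its probe sets, which gave 40 alternative values per comparison. For genes with 1 probe set that mean is the main value. Of the 40, 3 changed sign between genotypes with PBS, 2 with LPS, and 0 for LPS over PBS in either genotype. The difference between the LPS responses changed sign under some scaling for H2-Eb1, H2-DMa, H2-DMb1 and Ciita. For Ciita it was 0.03, and -0.18 under quantile normalization. No paired analysis was possible because each condition has 1 array, and for the same reason no replicate could be left out. Values near the background limit what a ratio can show.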
